A study of Mus musculus with 24 samples.

Results

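The genes described here are 37 mouse genes that are normally expressed in germ cells, most of them during spermatogenesis and meiosis, taken by symbol from a listed set of germline and meiosis genes among the 55291 genes of the deposited expression tables. All 37 listed symbols were found. They were measured by total RNA sequencing in mouse embryonic stem (ES) cells of line E14Tg2a, strain 129/Ola. In every group the endogenous CTCF protein, a zinc finger factor that binds DNA and anchors chromatin loops, carries an auxin-inducible degron. The study compared 12 groups of 2 libraries. In 9 groups the cells expressed a Ctcf transgene with a single amino acid substitution (R339Q, R342C, S354F, K365T, R377C, R377H, Q418R, R448Q or H455R) and were given 500 µM indole-3-acetic acid (IAA, an auxin that removes the degron-tagged protein) together with 1 µg/ml doxycycline (which induces the transgene) for 2 days. The WT IAA group carried the wild-type transgene and received IAA without doxycycline, so that the transgene was not induced. The WT ID group carried the wild-type transgene and received IAA and doxycycline, and the WT untreated group received neither agent. Mutant groups are named here by their substitution alone. All cells were grown without feeders in serum with leukemia inhibitory factor, CHIR99021 and PD0325901. Each substitution is represented by 1 line, so the effect of a substitution and that of its line cannot be told apart. The labels do not say whether the 2 libraries of a group came from separate cultures, and p-values measure the spread between these libraries, which may be technical.

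Germline genes are silent or low in somatic tissues, where many of their promoters carry DNA methylation. In ES cells many of them are held down by a Polycomb-type repressor complex that contains the DNA-binding proteins MGA, MAX and E2F6, which recognise an E-box and an E2F-type site in germline promoters. Cultured ES cells nevertheless transcribe part of the germline programme at low or moderate levels, among them components of the piRNA pathway, which silences transposons, and of the synaptonemal complex, the protein scaffold that joins homologous chromosomes in meiosis.

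Sequencing depth ranged between 27.76 and 77.14 M reads per library, and mitochondrial RNA took 1.221 to 3.375% of them. Ctcf RNA may hold both endogenous and transgene transcripts, whose parts cannot be told apart here. It had 20200 and 20661 normalised counts in R448Q and 16951 and 16752 in H455R cells, and lay between 8262 and 12255 in the other 7 mutants. It had 9248 and 9113 in WT IAA, 9973 and 10418 in WT ID and 8369 and 9000 in untreated cells. The untreated libraries were normalised in a separate table, so their counts may not share a scale with the others and were not compared with them. Naive ES cell markers were high in every library: their summed level over 15 genes was 10057 to 12746 TPM, the length-corrected share of transcripts, in the mutant libraries, 10368 and 10242 TPM in WT IAA, 11297 and 10977 TPM in WT ID and 12444 and 12263 TPM in untreated cells. Markers of spermatids, the cells that follow meiosis, summed to 97.6 to 146 TPM over 16 genes in the mutant libraries, 133 and 133 TPM in WT IAA, 127 and 123 TPM in WT ID and 118 and 109 TPM in untreated cells. Of those 16 spermatid markers 2 were at 0 in every library and 2 averaged at least 1 TPM, Odf2 at 113 TPM, which carries most of the sum, and Ldhc at 6.09 TPM.

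The germline genes spanned a wide range of levels in these ES cells. Over the 24 libraries 18 of the 37 averaged at least 10 TPM, 12 averaged 1 to 10 TPM and 7 averaged under 1 TPM. Tuba3a, a testis alpha-tubulin, and Rpl10l, a testis paralog of a ribosomal protein gene, were the highest, with 149 to 797 and 379 to 620 TPM in the mutant libraries. Tdrd6, a tudor protein of the chromatoid body, was near 0: it had 0 to 0.063 TPM in the mutant libraries, 0.019 and 0 TPM in WT IAA cells, 0 and 0.051 in WT ID cells and 0 and 0.023 in untreated cells. It averaged 2.32 normalised counts, under the minimum of 10, and was not tested; the other 36 genes passed. Part of the reads of 5 genes could come from other genes, since 19.9% of the 75-base words of Tuba3a, 18.9% of Tuba3b, 15.2% of Hormad1, 1.43% of Sycp1 and 0.316% of Rpl10l also occurred elsewhere in the transcriptome, and their values are uncertain to that extent. The library kit keeps strand, but the strand setting of the counting is not given in the sources used here, so reads from genes annotated on the opposite strand within Tdrkh, Tdrd9, Stk31, Sycp1, Sycp3, Syce1, Smc1b, Tex11, Brdt, Tuba3a, Dpep3 and Tex14 cannot be told apart from theirs. Tdrkh, Tdrd12, Piwil2, Mov10l1 and Tex14 are overlapped by genes annotated on the same strand, among them U3 RNA genes in Tex14. How reads in such overlaps were counted is not given either.

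Promoter sequences were available for 32 of the 37 genes (RefSeq, mouse build GRCm38.p6, 250 bases before to 50 bases after each annotated start), and the same window was searched in 27025 genes; Tex11, Tdrd6, Rbm44, Piwil2 and Tex15 had no window. The E-box CACGTG, read on both strands, was present in 14 of the 32 promoters (43.8%), against 8.09% of all promoters. The E2F6-type site GCGGGA, or TCCCGC on the other strand, was present in 14 of the 32 (43.8%), against 22.1% of all promoters. Either motif was present in 21 of 32 (65.6%), against 27.5% of all promoters, and both were present in 7 of 32 (21.9%), against 2.65% of all promoters. The letters of both motifs may share a base. The core of the CTCF motif, searched as CC and AGG with 3 bases between them and then GGC after 1 more base, was found on one strand or the other in 3 of 32 promoters (9.38%), those of Sycp2, Tdrkh and Dazl, against 3.96% of all promoters. The median number of CpG dinucleotides in the window was 18.5 (range 2 to 38) in the germline promoters, against 8 in all promoters. The stretches upstream of the start are printed below for genes whose RNA differed most between groups or that carry each kind of motif; Tex19.2 is shown as a CpG-poor promoter with none of the motifs. Capitals mark the E-box and the E2F6-type site, and in Dazl the CTCF core; the sequences are those of the reference strain and not of 129/Ola.
Brdt promoter, chr5:107330944-107331158, plus strand, mm10: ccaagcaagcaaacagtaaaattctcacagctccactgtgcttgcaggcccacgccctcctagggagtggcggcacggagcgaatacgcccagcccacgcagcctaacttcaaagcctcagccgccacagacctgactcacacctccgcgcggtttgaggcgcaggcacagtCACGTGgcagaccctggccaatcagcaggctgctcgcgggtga
Sycp1 promoter, chr3:102936101-102936350, minus strand, mm10: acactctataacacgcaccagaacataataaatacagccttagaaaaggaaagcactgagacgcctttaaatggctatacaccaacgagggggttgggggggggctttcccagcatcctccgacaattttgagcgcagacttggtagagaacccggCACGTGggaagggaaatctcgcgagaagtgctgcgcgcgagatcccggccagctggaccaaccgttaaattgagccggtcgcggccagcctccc
Mov10l1 promoter, chr15:88982744-88982908, plus strand, mm10: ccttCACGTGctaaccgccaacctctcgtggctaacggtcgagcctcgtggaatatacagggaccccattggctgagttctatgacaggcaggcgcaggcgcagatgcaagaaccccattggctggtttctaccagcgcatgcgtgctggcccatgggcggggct
Mael promoter, chr1:166238748-166238994, minus strand, mm10: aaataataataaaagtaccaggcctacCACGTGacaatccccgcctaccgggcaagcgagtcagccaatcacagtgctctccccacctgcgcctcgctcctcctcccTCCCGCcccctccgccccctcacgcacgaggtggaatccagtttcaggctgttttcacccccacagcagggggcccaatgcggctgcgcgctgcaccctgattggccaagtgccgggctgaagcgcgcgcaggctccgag
Hormad1 promoter, chr3:95559427-95559676, plus strand, mm10: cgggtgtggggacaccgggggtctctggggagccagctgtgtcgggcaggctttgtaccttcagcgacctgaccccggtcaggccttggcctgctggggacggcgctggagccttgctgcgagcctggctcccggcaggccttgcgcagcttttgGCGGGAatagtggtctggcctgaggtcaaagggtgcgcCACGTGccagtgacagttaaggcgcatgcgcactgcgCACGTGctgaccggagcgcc
Tex19.1 promoter, chr11:121145893-121146142, plus strand, mm10: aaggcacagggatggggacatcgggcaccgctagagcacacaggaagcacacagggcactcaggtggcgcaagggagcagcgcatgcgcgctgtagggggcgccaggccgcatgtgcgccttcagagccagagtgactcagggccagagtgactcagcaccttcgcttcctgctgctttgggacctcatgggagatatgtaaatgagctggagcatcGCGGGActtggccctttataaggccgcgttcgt
Tex19.2 promoter, chr11:121118678-121118927, minus strand, mm10: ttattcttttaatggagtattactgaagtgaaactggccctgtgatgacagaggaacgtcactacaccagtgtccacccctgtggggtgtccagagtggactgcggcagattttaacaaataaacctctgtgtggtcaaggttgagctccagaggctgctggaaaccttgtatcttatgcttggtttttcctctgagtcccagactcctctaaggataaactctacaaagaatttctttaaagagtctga
Dazl promoter, chr17:50293637-50293870, minus strand, mm10: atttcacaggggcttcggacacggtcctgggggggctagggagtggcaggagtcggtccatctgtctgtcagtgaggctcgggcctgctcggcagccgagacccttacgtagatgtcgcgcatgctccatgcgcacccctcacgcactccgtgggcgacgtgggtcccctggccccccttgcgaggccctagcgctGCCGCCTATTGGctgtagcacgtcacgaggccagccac

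Genes with and without these motifs ranged widely in how often their RNA differed. Among the 14 genes with an E-box, Brdt and Ddx4 were higher than in WT ID cells in 9 mutants by the test described next, Sycp1 and Mov10l1 in 8, Hormad1, Tdrd9 and Slc25a31 in 2, and Sycp3 and Taf7l in none. Among genes with neither an E-box nor the E2F6-type site, Tex101 was higher in 8 mutants, Syce1 in 7, Tex19.2 and Sohlh2 in 6, Asz1 in 3, Tdrd12 in 1, and Dpep3 and Mei1 in none. The carriers of the CTCF core were higher in 2 mutants (Sycp2), 7 mutants (Tdrkh) and 4 mutants (Dazl). A match describes the letters only; binding of any factor at these promoters was not measured here.

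Each mutant was compared with WT ID cells, which differ from it by the transgene's sequence and by the line. The limma moderated test was fitted to log2(normalised count + 1) of 18713 genes in the 22 libraries other than the untreated cells, and a gene is called higher or lower, or is said to have risen or fallen, where its p-value adjusted over all genes of the comparison (Benjamini-Hochberg) was under 0.05. Differences are given as log2 fold changes ± SE with 2 libraries a group. In every mutant more of the 36 germline genes were higher than lower. In K365T 25 were higher and 2 lower, where 17.7% of all genes were higher and 14.2% lower (32.0% called). In R377H 25 were higher and 0 lower, where 14.4% of all genes were higher and 10.7% lower (25.1% called); 0 were lower also at an unadjusted limma p under 0.05, by edgeR and by DESeq2. In R448Q 23 were higher and 5 lower, where 22.8% of all genes were higher and 23.1% lower (45.8% called). In R377C 17 were higher and 1 lower, where 4.67% of all genes were higher and 3.43% lower (8.09% called). In R342C 16 were higher and 1 lower, where 10.0% of all genes were higher and 13.3% lower (23.3% called). In R339Q 14 were higher and 4 lower, where 11.8% of all genes were higher and 9.7% lower (21.5% called). In S354F 14 were higher and 1 lower, where 5.49% of all genes were higher and 4.31% lower (9.8% called). In H455R 14 were higher and 3 lower, where 12.6% of all genes were higher and 10.5% lower (23.1% called). In Q418R 11 were higher and 3 lower, where 11.2% of all genes were higher and 13.8% lower (25.0% called). Thus 30.6% (Q418R) to 69.4% (K365T and R377H) of the germline genes were higher, a larger share than among all genes in each of the 9 comparisons. These comparisons share the WT ID libraries and are not independent of each other. The germline genes were also chosen with earlier results of these data known, so their shares describe the list and do not test it.

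The median log2 fold change of the 36 genes against WT ID cells was 1.03 in R448Q, 1.01 in K365T, 0.95 in R377H, 0.69 in R377C, 0.48 in S354F, 0.45 in R342C, 0.36 in R339Q, 0.28 in Q418R and 0.27 in H455R, while the median over all genes tested lay between -0.03 and 0.01. Some counts leaned on 1 library: 10 germline genes remained called in R377C without R377C replicate 2, against 18 with all libraries, 8 in S354F without WT ID replicate 1, against 15, and 11 in H455R without WT ID replicate 2, against 17. More RNA per cell and more cells that express a gene cannot be told apart in these bulk libraries.

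**Figure D1:**
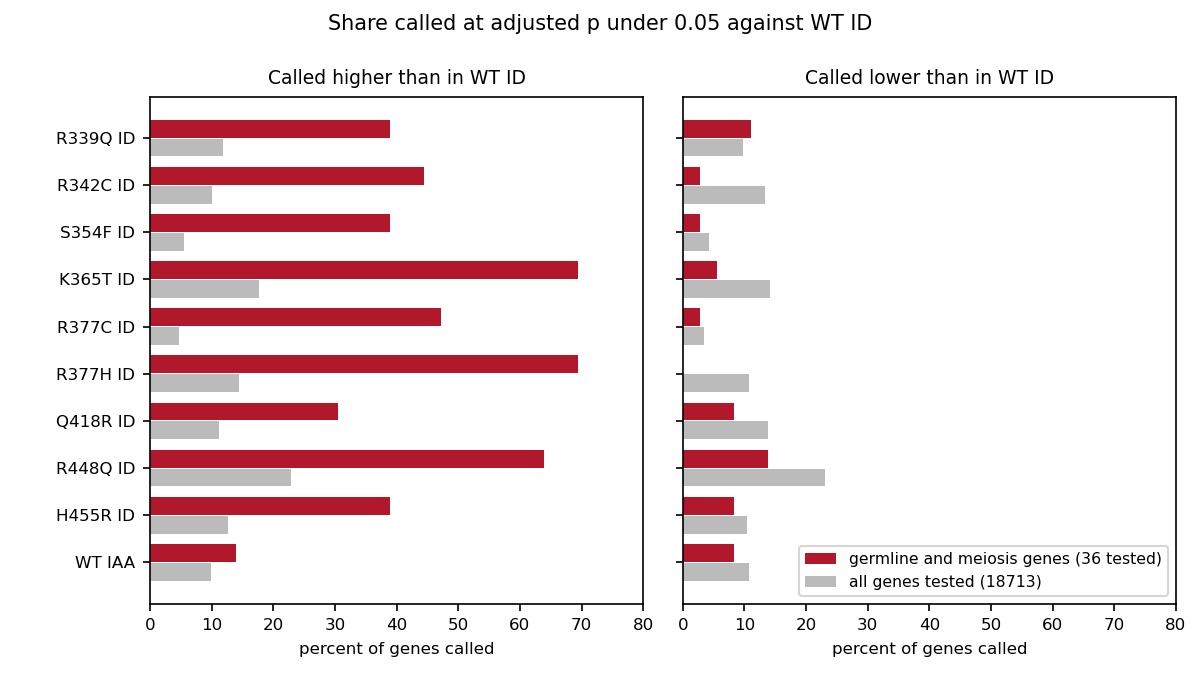
Percent of the 36 tested germline genes and of all 18713 genes called higher or lower (limma, adjusted p under 0.05) in each comparison with WT ID cells. In each of the 9 mutants the share of germline genes called higher, 30.6 to 69.4%, exceeds the share of all genes called higher.

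Of the 324 tests of a germline gene in a mutant, 159 were higher and 20 lower. At least 1 mutant was higher for 31 of the 36 genes and lower for 9, with 5 genes called both ways. Mei1, needed for meiotic DNA breaks, was the 1 gene called in no mutant. Of the 36 genes 18 (50.0%) were higher in at least 5 mutants, against 5.78% of all genes, and 5 (13.9%), Brdt, Rbm44, Ddx4, Piwil2 and Tex11, were higher in all 9, against 0.449% of all genes. No germline gene was lower in more than 4 mutants. The genes were chosen with earlier results of these data known, so these shares describe the list and are not an independent test. In TPM all 18 mutant libraries lay above both WT ID libraries for 11 of the 36 genes, against 1.61% of all genes: Brdt, Ddx4, Rbm44, Tdrkh, Piwil2, Mov10l1, Sycp1, Syce1, Tex11, Tex101 and Tex14.

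**Figure D2:**
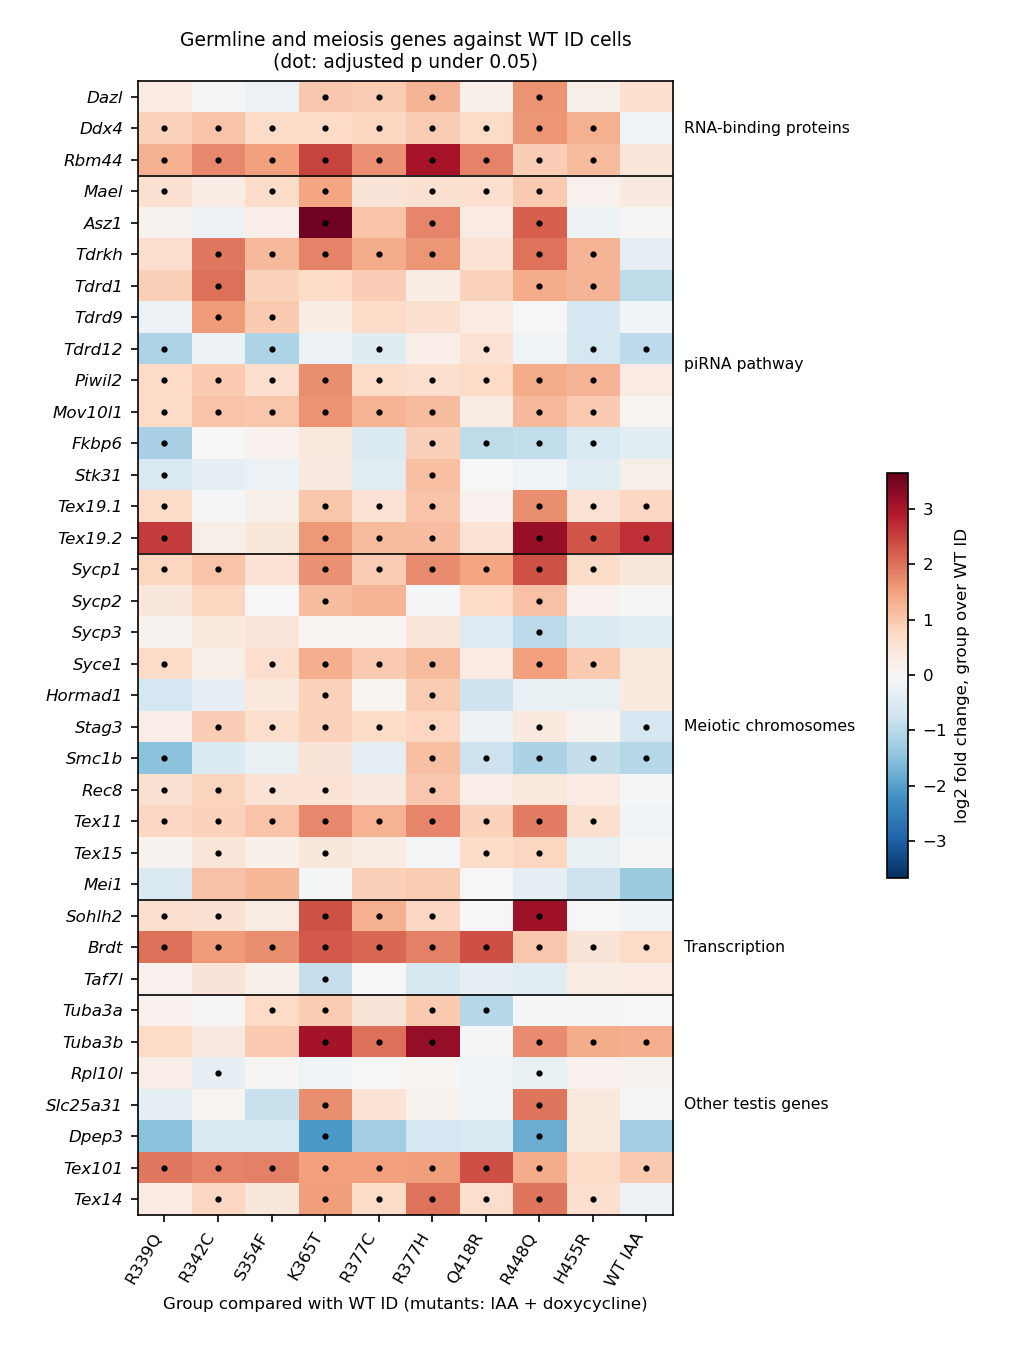
Log2 fold change of the 36 tested germline genes (rows, by role) in the 9 mutants and in WT IAA, each against WT ID (columns); a dot marks an adjusted p under 0.05. Most dots lie on positive values, 159 against 20 in the mutant columns, and Fkbp6, Tdrd12 and Smc1b carry 4 of those negative ones each.

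The first role group holds 3 RNA-binding proteins of germ cells, Ddx4, Rbm44 and Dazl. All 3 were higher in K365T, R377C, R377H and R448Q, and 2 of them, Ddx4 and Rbm44, in the other 5 mutants. Ddx4 (ENSMUSG00000021758.14, chr13:112598333-112652475, minus strand) encodes the mouse Vasa helicase, a classic germ cell marker of the chromatoid body. It had 22.9 and 22.5 TPM in R448Q, 23.01 and 18.6 in H455R, 18.3 and 18.5 in R342C, 15.2 and 15.1 in R339Q, 14.3 and 15.1 in R377H, 12.2 and 16.9 in R377C, 13.95 and 13.4 in S354F, 11.1 and 15.3 in K365T and 13.1 and 12.3 in Q418R cells. Ddx4 had 7.41 and 8.27 TPM in WT IAA cells, 8.43 and 8.12 in WT ID cells and 3.42 and 3.401 in untreated cells. Every mutant library was above every WT library. Its log2 fold change against WT ID ranged between 0.71 ± 0.16 in S354F and 1.62 ± 0.16 in R448Q (adjusted p 0.00728 and 1.06e-07). For Ddx4, the threshold was missed in S354F without S354F replicate 1 or WT ID replicate 1 (adjusted p 0.0593 to 0.0704) and in R377C without R377C replicate 2 (adjusted p = 0.1199).

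Rbm44 (ENSMUSG00000070732.2, chr1:91145089-91170795, plus strand) encodes a protein of the intercellular bridges between germ cells. It had 7.94 and 7.63 TPM in R377H, 6.17 and 4.67 in K365T, 3.71 and 3.72 in R342C, 3.28 and 3.41 in Q418R, 2.98 and 3.603 in R377C, 2.95 and 2.86 in S354F, 2.58 and 2.53 in R339Q, 2.26 and 2.39 in H455R and 1.88 and 1.497 in R448Q cells. Rbm44 had 1.17 and 1.67 TPM in WT IAA cells, 1.04 and 0.992 in WT ID cells and 0.574 and 0.574 in untreated cells. The mutant libraries were above both WT ID libraries, with R377H and K365T the highest and R448Q the lowest, and R448Q replicate 2 was below WT IAA replicate 2. The log2 fold change against WT ID was 3.01 ± 0.17 in R377H (adjusted p = 8.45e-10) and 0.89 ± 0.17 in R448Q (adjusted p = 0.000339). For Rbm44, the threshold was missed in R448Q after centring each chromosome (adjusted p = 0.0688). Dazl, a translational regulator of germ cells, was higher in R448Q at 1.64 ± 0.23, in R377H at 1.24 ± 0.23, in K365T at 0.99 ± 0.23 and in R377C at 0.93 ± 0.23 (adjusted p 8.85e-06 to 0.0158). In the other 5 mutants its log2 fold change was between -0.22 and 0.29 and did not pass. For Dazl, the threshold was missed in K365T without WT ID replicate 2 (adjusted p = 0.0561) and in R377C without R377C replicate 2 or WT ID replicate 2 (adjusted p 0.185 to 0.198).

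The second group is the piRNA pathway and its transposon-control partners, of which 12 of 13 were tested. Of the 12, 9 were higher in R377H, 8 in R448Q, 7 in K365T, 6 in H455R, 5 each in R339Q, R342C, S354F and R377C, and 3 in Q418R. Lower were 3 in R339Q, 2 in H455R and 1 each in S354F, R377C, Q418R and R448Q. Piwil2 (ENSMUSG00000033644.5, chr14:70372477-70429383, minus strand), the PIWI protein MILI that binds piRNAs, had 10.5 and 14.2 TPM in K365T, 9.35 and 9.93 in H455R, 8.84 and 9.57 in R448Q, 8.53 and 8.203 in R342C, 6.75 and 6.897 in R339Q, 5.55 and 7.57 in R377C, 5.26 and 7.42 in Q418R, 6.87 and 5.65 in S354F and 5.51 and 5.94 in R377H cells. Piwil2 had 4.36 and 5.76 TPM in WT IAA cells, 4.15 and 3.89 in WT ID cells and 3.29 and 3.96 in untreated cells. All mutant libraries exceeded both WT ID libraries, while WT IAA replicate 2 overlapped the lowest mutants. The log2 fold change against WT ID ranged between 0.60 ± 0.19 in R377H (adjusted p = 0.0257) and 1.68 ± 0.19 in K365T (adjusted p = 2.24e-06). For Piwil2, the threshold was missed in R339Q without R339Q replicate 1 or WT ID replicate 1 (adjusted p 0.0523 to 0.0715) and in S354F without S354F replicate 1 or either WT ID library, with no filter on low values or on deposited TPM (adjusted p 0.0676 to 0.314). Also for Piwil2, it was missed in R377C without R377C replicate 2 or either WT ID library, with no filter on low values or on deposited TPM (adjusted p 0.0542 to 0.359) and in R377H without either R377H library or either WT ID library, with no filter on low values or on deposited TPM (adjusted p 0.0586 to 0.147). Also for Piwil2, it was missed in Q418R without Q418R replicate 2 (adjusted p = 0.154).

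Mov10l1 (ENSMUSG00000015365.15, chr15:88982909-89055152, plus strand), a helicase required for making piRNAs, had 6.33 and 8.37 TPM in K365T, 4.54 and 7.53 in R377C, 5.26 and 5.601 in R342C, 4.67 and 5.67 in R377H, 4.41 and 5.56 in S354F, 4.79 and 5.05 in R448Q, 4.48 and 5.14 in H455R, 3.39 and 4.73 in R339Q and 2.67 and 2.83 in Q418R cells. Mov10l1 had 2.61 and 2.71 TPM in WT IAA cells, 2.37 and 2.500 in WT ID cells and 1.59 and 2.08 in untreated cells. It was higher than in WT ID cells in 8 mutants, by up to 1.65 ± 0.21 in K365T (adjusted p = 8.67e-06). In Q418R the difference was 0.26 ± 0.21 and did not pass (adjusted p = 0.396). For Mov10l1, the threshold was missed in R339Q without R339Q replicate 2 or either WT ID library (adjusted p 0.0572 to 0.215) and in S354F without S354F replicate 2 or WT ID replicate 1 (adjusted p 0.0517 to 0.0551).

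Tdrkh (ENSMUSG00000041912.12, chr3:94413273-94434668, plus strand) encodes a mitochondrial tudor protein that acts in piRNA trimming. It had 1.81 and 1.75 TPM in R342C, 1.702 and 1.38 in R448Q, 1.28 and 1.68 in K365T, 1.09 and 1.43 in R377H, 1.01 and 1.27 in R377C, 1.12 and 0.987 in H455R, 1.09 and 0.91 in S354F, 0.594 and 0.763 in R339Q and 0.605 and 0.531 in Q418R cells. Tdrkh had 0.322 and 0.359 TPM in WT IAA cells, 0.408 and 0.449 in WT ID cells and 0.165 and 0.411 in untreated cells. It was a low gene, yet the mutant libraries did not overlap any WT library. Tdrkh was higher in 7 mutants, by 1.98 ± 0.24 in R448Q, 1.92 ± 0.24 in R342C and 1.82 ± 0.24 in K365T (adjusted p 1.12e-06, 1.73e-05 and 1.02e-05). In R339Q and Q418R the differences of 0.62 ± 0.24 and 0.49 ± 0.24 did not pass (adjusted p 0.0703 and 0.145).

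Tex19.1 (ENSMUSG00000039329.8, chr11:121146143-121148319, plus strand) and Tex19.2 (ENSMUSG00000039337.3, chr11:121116215-121118677, minus strand) are neighbouring paralogs; Tex19.1 restrains retrotransposons in mouse germ cells. Tex19.1 had 182 and 203 TPM in R448Q, 136 and 121 in K365T, 125 and 131 in R377H, 108 and 114 in R339Q, 96.5 and 100.0 in H455R, 95.1 and 97.9 in R377C, 72.5 and 83.5 in S354F, 61.6 and 79.00 in Q418R and 72.3 and 64.3 in R342C cells. Tex19.1 had 116 and 111 TPM in WT IAA cells, 69.8 and 63.9 in WT ID cells and 39.2 and 40.99 in untreated cells. R342C, S354F and Q418R lay near WT ID cells, and the other 6 mutants and WT IAA cells lay above them. Tex19.1 was higher in those 6 mutants, by 1.69 ± 0.10 in R448Q (adjusted p = 2.07e-10) and by 0.52 to 1.03 in the others. Tex19.2 had 5.14 and 7.55 TPM in R448Q, 4.34 and 4.86 in R339Q, 3.53 and 4.21 in H455R, 2.23 and 2.12 in K365T, 1.51 and 1.94 in R377C, 1.59 and 1.49 in R377H, 1.17 and 0.878 in S354F, 0.826 and 1.17 in Q418R and 0.747 and 1.14 in R342C cells. Tex19.2 had 4.57 and 5.39 TPM in WT IAA cells, 0.807 and 0.674 in WT ID cells and 0.247 and 0.318 in untreated cells. It was higher in the same 6 mutants as Tex19.1, by 3.18 ± 0.29 in R448Q, 2.56 ± 0.29 in R339Q and 2.30 ± 0.29 in H455R (adjusted p 3.16e-08, 3.14e-06 and 1.03e-05), and by 1.11 to 1.59 in R377H, R377C and K365T. For Tex19.2, the threshold was missed in R377C without R377C replicate 2 or either WT ID library (adjusted p 0.0623 to 0.165) and in R377H without WT ID replicate 2 or after centring each chromosome (adjusted p 0.0524 to 0.158).

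The remaining piRNA genes split by line. Mael, a nuage protein needed for transposon silencing, had 8.19 to 20.01 TPM in the mutant libraries (median 11.5). Mael had 10.6 and 8.704 TPM in WT IAA cells, 8.54 and 6.75 in WT ID cells and 3.91 and 4.04 in untreated cells. Mael was higher in K365T at 1.43 ± 0.18 and R448Q at 0.95 ± 0.18, and in Q418R, S354F, R377H and R339Q by 0.55 to 0.66. For Mael, the threshold was missed in R339Q without either R339Q library or either WT ID library, with no filter on low values or on deposited TPM (adjusted p 0.0521 to 0.251) and in S354F without S354F replicate 2 or either WT ID library (adjusted p 0.0571 to 0.211). Also for Mael, it was missed in R377H without R377H replicate 2 or WT ID replicate 2, with no filter on low values or on deposited TPM (adjusted p 0.0554 to 0.284) and in Q418R without Q418R replicate 2 or WT ID replicate 2, on deposited TPM or after centring each chromosome (adjusted p 0.0566 to 0.148). Also for Mael, it was missed in R448Q after centring each chromosome (adjusted p = 0.0512). Asz1, a mitochondrial germ granule protein, was higher in K365T at 3.56 ± 0.51, R448Q at 2.19 ± 0.51 and R377H at 1.79 ± 0.51, with 1.61 and 1.73 TPM in K365T cells against 0.121 and 0.128 TPM in WT ID cells. Asz1 averaged 14.3 normalised counts, near the minimum of 10 for the test. That mean leaned on the K365T libraries, at 63.5 and 69.2 counts, where the called difference was largest. In WT ID cells Asz1 had 4.39 and 5.01 counts, so its differences start near the floor and a fall could hardly be called. For Asz1, the threshold was missed in R377H without either R377H library or either WT ID library or with no filter on low values (adjusted p 0.0526 to 0.0796). Tdrd1, a tudor partner of MILI, was higher in R342C at 2.02 ± 0.33, R448Q at 1.35 ± 0.33 and H455R at 1.24 ± 0.33. For Tdrd1, the threshold was missed in H455R without H455R replicate 1 or WT ID replicate 2 (adjusted p 0.0602 to 0.0645). Tdrd9, a tudor helicase, was higher in R342C at 1.56 ± 0.24 and S354F at 0.95 ± 0.24. For Tdrd9, the threshold was missed in S354F without S354F replicate 1 or either WT ID library (adjusted p 0.0526 to 0.1305).

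Members of the same pathway also fell. Tdrd12, a tudor helicase of secondary piRNA production, was lower in R339Q and S354F at -1.14 ± 0.12 and -1.14 ± 0.12, in H455R at -0.63 ± 0.12 and in R377C at -0.44 ± 0.12, and higher in Q418R at 0.51 ± 0.12. It had 7.85 and 8.88 TPM in R339Q and 28.7 and 20.5 TPM in Q418R cells, against 18.5 and 17.6 TPM in WT ID cells. For Tdrd12, the threshold was missed in R377C without either R377C library or either WT ID library or on deposited TPM (adjusted p 0.0577 to 0.174) and in Q418R without Q418R replicate 1 (adjusted p = 0.0959). Fkbp6, a co-chaperone of the piRNA pathway, was lower in R339Q at -1.18 ± 0.18, Q418R at -0.94 ± 0.18, R448Q at -0.90 ± 0.18 and H455R at -0.56 ± 0.18, and higher in R377H at 0.87 ± 0.18. For Fkbp6, the threshold was missed in H455R without either H455R library or either WT ID library, with no filter on low values or on deposited TPM (adjusted p 0.0545 to 0.148). Stk31, a tudor-domain kinase of testis, was higher in R377H at 1.10 ± 0.15 and lower in R339Q at -0.57 ± 0.15. For Stk31, the threshold was missed in R339Q without R339Q replicate 1 or WT ID replicate 1 (adjusted p 0.146 to 0.282).

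**Figure D3:**
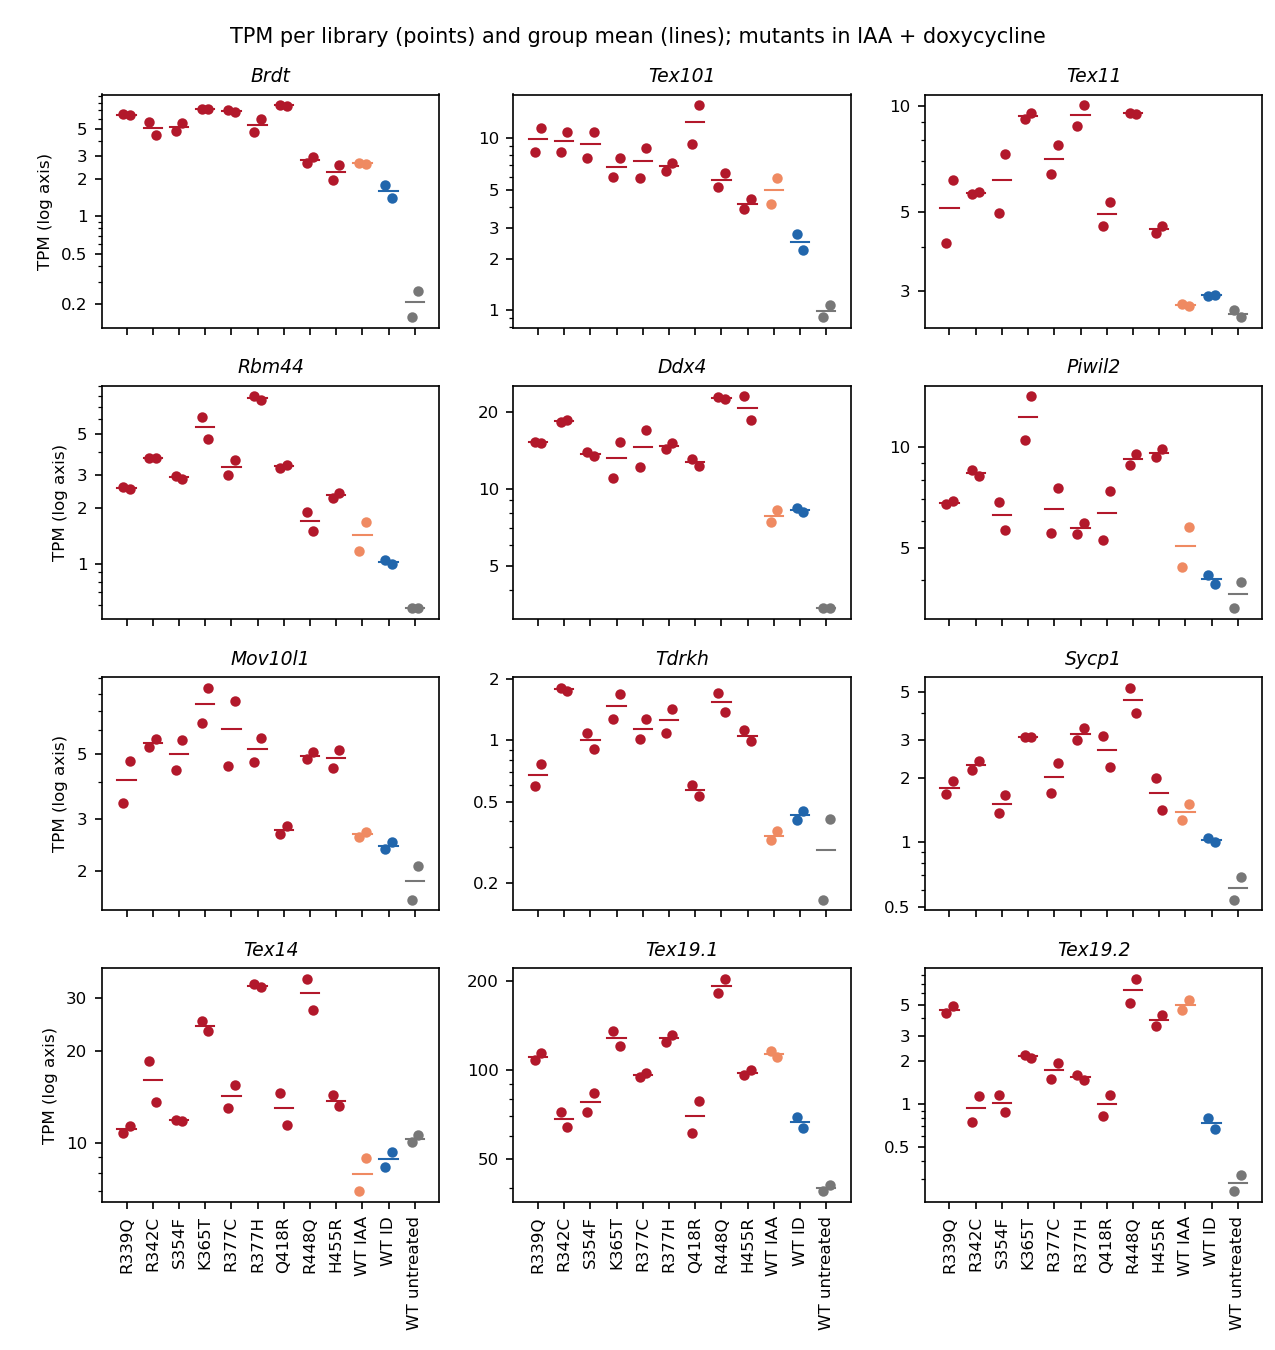
TPM in each library (points, log axis) of the 12 germline genes called in the most comparisons with WT ID, in the 9 mutants, WT IAA, WT ID and untreated cells; the untreated libraries come from a separately normalised table. Rbm44 reaches 7.94 TPM in R377H and Brdt 7.69 TPM in Q418R cells, and the WT ID libraries lie at 1.04 and 0.992 TPM and at 1.77 and 1.39 TPM.

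The third group holds 11 genes of meiotic chromosome structure and recombination. Of the 11, 8 were higher in K365T, 7 in R377H, 6 in R448Q, 5 in R342C, 4 each in R339Q, S354F and R377C, and 3 each in Q418R and H455R. Lower were 2 in R448Q and 1 each in R339Q, Q418R and H455R. Sycp1 (ENSMUSG00000027855.13, chr3:102818499-102936100, minus strand) forms the transverse filaments of the synaptonemal complex. It had 5.25 and 3.99 TPM in R448Q, 3.01 and 3.41 in R377H, 3.09 and 3.09 in K365T, 3.14 and 2.25 in Q418R, 2.17 and 2.39 in R342C, 1.69 and 2.35 in R377C, 1.67 and 1.92 in R339Q, 1.98 and 1.41 in H455R and 1.36 and 1.66 in S354F cells. Sycp1 had 1.27 and 1.500 TPM in WT IAA cells, 1.04 and 1.001 in WT ID cells and 0.54 and 0.686 in untreated cells. Sycp1 was higher in 8 mutants, by up to 2.31 ± 0.23 in R448Q (adjusted p = 1.41e-07). In S354F the difference was 0.54 ± 0.23 (adjusted p = 0.171). For Sycp1, the threshold was missed in R339Q without either R339Q library or either WT ID library (adjusted p 0.0828 to 0.111) and in R377C without R377C replicate 2 or either WT ID library (adjusted p 0.0794 to 0.222). Also for Sycp1, it was missed in H455R without H455R replicate 1 or either WT ID library, with no filter on low values, on deposited TPM or with DESeq2 on recovered reads (adjusted p 0.0529 to 0.382).

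Tex11 (ENSMUSG00000009670.11, chrX:100838648-101059667, minus strand) is an X-linked gene needed for meiotic recombination. It had 9.55 and 9.49 TPM in R448Q, 8.78 and 10.04 in R377H, 9.14 and 9.53 in K365T, 6.42 and 7.77 in R377C, 4.98 and 7.33 in S354F, 5.62 and 5.700 in R342C, 4.11 and 6.18 in R339Q, 4.57 and 5.36 in Q418R and 4.38 and 4.57 in H455R cells. Tex11 had 2.77 and 2.72 TPM in WT IAA cells, 2.91 and 2.93 in WT ID cells and 2.65 and 2.54 in untreated cells. Every mutant library was above every WT library, and the WT groups were close to each other. The log2 fold change against WT ID ranged between 0.59 ± 0.18 in H455R (adjusted p = 0.0211) and 1.87 ± 0.18 in R448Q (adjusted p = 6.09e-08). For Tex11, the threshold was missed in R339Q without R339Q replicate 2 (adjusted p = 0.0929) and in H455R without either H455R library or either WT ID library (adjusted p 0.0591 to 0.129).

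The parts of the synaptonemal complex did not move as a block. Syce1, of its central element, was higher in 7 mutants, by 1.50 ± 0.14 in R448Q and 1.33 ± 0.14 in K365T, with 32.2 to 80.3 TPM in the mutant libraries against 30.8 and 31.5 TPM in WT ID cells. For Syce1, the threshold was missed in S354F without S354F replicate 2 or WT ID replicate 1 (adjusted p 0.101 to 0.167). Sycp3, of the axial element, was lower in R448Q at -0.95 ± 0.18, with 26.7 and 24.97 TPM in R448Q against 53.3 and 58.7 TPM in WT ID cells, and its differences in the other 8 mutants, between -0.50 and 0.45, did not pass. With other settings Sycp3 was called lower in Q418R on deposited TPM and with DESeq2 (adjusted p 0.0206 and 0.0441), lower in H455R with DESeq2 or without H455R replicate 1 (0.0335 and 0.0494), and higher in R342C without R342C replicate 1 (0.0342). Its axial partner Sycp2 was low, at 0.112 to 0.5 TPM in the mutant libraries, and was higher in K365T at 1.11 ± 0.40 and R448Q at 1.07 ± 0.40. For Sycp2, the threshold was missed in K365T without either K365T library or WT ID replicate 2, with no filter on low values, on deposited TPM or with DESeq2 on recovered reads (adjusted p 0.0574 to 0.347) and in R448Q without either R448Q library or WT ID replicate 2, with no filter on low values, on deposited TPM or with DESeq2 on recovered reads (adjusted p 0.0599 to 0.328). Hormad1, which loads on unsynapsed axes, was higher in R377H at 0.92 ± 0.27 and K365T at 0.85 ± 0.27. For Hormad1, the threshold was missed in K365T without either K365T library or WT ID replicate 2, with no filter on low values or on deposited TPM (adjusted p 0.0574 to 0.189) and in R377H without R377H replicate 2 or WT ID replicate 2 or on deposited TPM (adjusted p 0.0581 to 0.166).

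The meiotic cohesin genes differed from one another. Stag3, the meiosis-specific STAG subunit, was higher in 6 mutants, by 0.91 ± 0.11 in R342C, 0.83 ± 0.11 in K365T, 0.78 ± 0.11 in R377H, 0.66 ± 0.11 in R377C, 0.64 ± 0.11 in S354F and 0.36 ± 0.11 in R448Q. For Stag3, the threshold was missed in R448Q without R448Q replicate 1 or WT ID replicate 2 or on deposited TPM (adjusted p 0.05499 to 0.283). Rec8, the meiotic kleisin, was higher in 5 mutants, by 1.00 ± 0.15 in R377H, 0.82 ± 0.15 in R342C and 0.49 to 0.56 in R339Q, S354F and K365T. For Rec8, the threshold was missed in R339Q without R339Q replicate 1 or WT ID replicate 2 (adjusted p 0.0975 to 0.104) and in S354F without S354F replicate 1 or either WT ID library, with no filter on low values or on deposited TPM (adjusted p 0.0832 to 0.363). Also for Rec8, it was missed in K365T without K365T replicate 2 or either WT ID library, with no filter on low values or on deposited TPM (adjusted p 0.05100 to 0.193). Smc1b, the meiotic SMC subunit, was lower in R339Q at -1.49 ± 0.20, R448Q at -1.16 ± 0.20, H455R at -0.87 ± 0.20 and Q418R at -0.75 ± 0.20, and higher in R377H at 1.10 ± 0.20. It had 4.16 and 6.72 TPM in R339Q and 30.2 and 28.9 TPM in R377H cells, against 15.9 and 13.5 TPM in WT ID cells. For Smc1b, the threshold was missed in Q418R without Q418R replicate 1 or WT ID replicate 1 (adjusted p 0.0799 to 0.134) and in H455R without H455R replicate 1 (adjusted p = 0.0883). Tex15, required in mouse male germ cells for transposon silencing and meiotic progression, was higher in R448Q, Q418R, R342C and K365T by 0.41 to 0.77. For Tex15, the threshold was missed in R342C without R342C replicate 2 or WT ID replicate 2 (adjusted p 0.0505 to 0.148) and in K365T without K365T replicate 1 or WT ID replicate 2, on deposited TPM or after centring each chromosome (adjusted p 0.0923 to 0.177). Mei1 had 0.038 to 0.4 TPM in the mutant libraries, against 0.043 and 0.039 TPM in WT IAA cells, 0.132 and 0.123 in WT ID cells and 0.064 and 0.137 in untreated cells, and no difference from WT ID cells passed (adjusted p 0.117 to 0.993).

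Among the 3 transcriptional regulators, Brdt (ENSMUSG00000029279.15, chr5:107331159-107387058, plus strand), the testis member of the BET family that binds acetylated histones, had 7.69 and 7.58 TPM in Q418R, 7.09 and 7.11 in K365T, 7.01 and 6.74 in R377C, 6.51 and 6.36 in R339Q, 4.73 and 5.92 in R377H, 4.79 and 5.56 in S354F, 5.68 and 4.44 in R342C, 2.64 and 2.96 in R448Q and 1.95 and 2.55 in H455R cells. Brdt had 2.67 and 2.62 TPM in WT IAA cells, 1.77 and 1.39 in WT ID cells and 0.158 and 0.255 in untreated cells. Each mutant library was above both WT ID libraries, and R448Q and H455R, with the higher Ctcf RNA, held the lowest Brdt values of the mutants; the part of the Ctcf level in this was not tested. The log2 fold change against WT ID was 2.36 ± 0.14 in Q418R (adjusted p = 1.74e-09), 2.25 ± 0.14 in K365T and 2.11 ± 0.14 in R377C, and 0.48 ± 0.14 in H455R (adjusted p = 0.0225). For Brdt, the threshold was missed in H455R without H455R replicate 2 or WT ID replicate 2 or on deposited TPM (adjusted p 0.0643 to 0.227). Sohlh2, a bHLH factor of early germ cells, was higher in 6 mutants. It reached 189.7 and 189.9 TPM in R448Q and 110.0 and 128 TPM in K365T cells, against 25.01 and 24.5 TPM in WT ID cells, a log2 fold change of 3.11 ± 0.19 and 2.34 ± 0.19. In R377C, R377H, R339Q and R342C it was 0.56 to 1.30. For Sohlh2, the threshold was missed in R339Q without either R339Q library or either WT ID library, with no filter on low values or on deposited TPM (adjusted p 0.0523 to 0.157) and in R342C without either R342C library or either WT ID library, with no filter on low values or with DESeq2 on recovered reads (adjusted p 0.05403 to 0.209). Also for Sohlh2, it was missed in R377H without R377H replicate 2 or WT ID replicate 1 (adjusted p 0.0511 to 0.0635). Taf7l, a germ cell paralog of the general transcription factor TAF7, was lower in K365T at -0.84 ± 0.29. For Taf7l, the threshold was missed in K365T without either K365T library or either WT ID library, with no filter on low values or with DESeq2 on recovered reads (adjusted p 0.0553 to 0.166).

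Of the other 7 testis genes, Tex101 (ENSMUSG00000062773.6, chr7:24668007-24676675, minus strand), a GPI-anchored surface protein of germ cells, had 9.31 and 15.6 TPM in Q418R, 8.34 and 11.4 in R339Q, 8.35 and 10.96 in R342C, 7.72 and 10.8 in S354F, 5.91 and 8.77 in R377C, 6.501 and 7.23 in R377H, 5.96 and 7.64 in K365T, 5.21 and 6.299 in R448Q and 3.88 and 4.45 in H455R cells. Tex101 had 4.16 and 5.88 TPM in WT IAA cells, 2.78 and 2.23 in WT ID cells and 0.915 and 1.08 in untreated cells. It was higher than in WT ID cells in 8 mutants, by up to 2.34 ± 0.28 in Q418R (adjusted p = 3.97e-06). In H455R its difference was 0.70 ± 0.28 (adjusted p = 0.0772). For Tex101, the threshold was missed in R377C without R377C replicate 2 (adjusted p = 0.0524). Tex14 (ENSMUSG00000010342.16, chr11:87405065-87555823, plus strand), a component of germ cell intercellular bridges, had 33.1 and 32.5 TPM in R377H, 34.5 and 27.4 in R448Q, 25.2 and 23.3 in K365T, 18.6 and 13.6 in R342C, 13.1 and 15.5 in R377C, 14.4 and 13.2 in H455R, 14.6 and 11.5 in Q418R, 11.97 and 11.8 in S354F and 10.8 and 11.4 in R339Q cells. Tex14 had 6.997 and 8.95 TPM in WT IAA cells, 8.39 and 9.39 in WT ID cells and 10.1 and 10.6 in untreated cells. Every mutant library was above every WT library, and R377H, R448Q and K365T stood highest. It was higher in 7 mutants, by 1.98 ± 0.14 in R377H and 1.96 ± 0.14 in R448Q (adjusted p 1.13e-08 and 2.75e-09). For Tex14, the threshold was missed in R377C without R377C replicate 2 or WT ID replicate 1 (adjusted p 0.104 to 0.114) and in Q418R without Q418R replicate 1 or WT ID replicate 1 (adjusted p 0.0537 to 0.0554). Also for Tex14, it was missed in H455R without H455R replicate 1 or WT ID replicate 1 (adjusted p 0.0633 to 0.0793).

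Tuba3b, a testis alpha-tubulin, had 0.762 to 12.03 TPM in the mutant libraries. Tuba3b had 3.27 and 2.902 TPM in WT IAA cells, 1.51 and 0.941 in WT ID cells and 0.456 and 0.413 in untreated cells. Tuba3b was higher in R377H at 3.21 ± 0.34, K365T at 3.04 ± 0.34, R377C at 2.02 ± 0.34, R448Q at 1.73 ± 0.34 and H455R at 1.34 ± 0.34. For Tuba3b, the threshold was missed in H455R without WT ID replicate 2 (adjusted p = 0.0945). Its abundant paralog Tuba3a was higher in R377H at 0.97 ± 0.15, K365T at 0.93 ± 0.15 and S354F at 0.72 ± 0.15 and lower in Q418R at -1.04 ± 0.15, with 149 and 214 TPM in Q418R against 400.1 and 380.4 TPM in WT ID cells. For Tuba3a, the threshold was missed in S354F without S354F replicate 2 (adjusted p = 0.101). Slc25a31, a germ cell ADP/ATP carrier, was higher in R448Q at 1.96 ± 0.32 and K365T at 1.71 ± 0.32. Rpl10l was lower in R342C at -0.31 ± 0.10 and R448Q at -0.26 ± 0.10. For Rpl10l, the threshold was missed in R342C without R342C replicate 1 or either WT ID library, with no filter on low values or on deposited TPM (adjusted p 0.0593 to 0.255) and in R448Q without either R448Q library or either WT ID library, with no filter on low values or after centring each chromosome (adjusted p 0.0683 to 0.234). Dpep3, a testis dipeptidase, was lower in K365T at -2.10 ± 0.61 and R448Q at -1.80 ± 0.61. For Dpep3, the threshold was missed in K365T without K365T replicate 1 or WT ID replicate 1 (adjusted p 0.0705 to 0.0814) and in R448Q without R448Q replicate 1 or either WT ID library or with no filter on low values (adjusted p 0.0545 to 0.112).

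WT IAA and WT ID cells carried the same transgene and differed in doxycycline, which induces it. Induction and any other effect of doxycycline cannot be told apart here. Of the 36 germline genes 5 were higher and 3 lower in WT IAA cells, where 9.96% of all genes were higher and 10.7% lower (20.7% called), and their median log2 fold change was 0.03. Tex19.2 was higher at 2.68 ± 0.29 (adjusted p = 3.94e-06), with 4.57 and 5.39 TPM in WT IAA against 0.807 and 0.674 TPM in WT ID cells. Tuba3b was higher at 1.32 ± 0.34, Tex101 at 0.96 ± 0.28, Tex19.1 at 0.75 ± 0.10 and Brdt at 0.73 ± 0.14. Smc1b was lower at -1.05 ± 0.20, Tdrd12 at -0.94 ± 0.12 and Stag3 at -0.62 ± 0.11 (adjusted p 0.00122, 2.14e-05 and 0.000627). The Tex101 call was lost in WT IAA without WT IAA replicate 2 or either WT ID library (adjusted p 0.0528 to 0.208) and the Tuba3b call in WT IAA without WT IAA replicate 1 or WT ID replicate 2 (adjusted p 0.0614 to 0.114). Ddx4, Tex11, Mov10l1 and Sohlh2, which were higher in 6 or more mutants, differed by -0.10, -0.10, 0.11 and -0.10 in WT IAA cells and did not pass. Brdt, Tex101, Tex19.1 and Tex19.2, called higher above, and Stag3, called lower, were also higher in 6 or more mutants. Others such genes leaned either way without passing. Rbm44 averaged 122 normalised counts in WT IAA against 88.1 in WT ID cells, Piwil2 353 against 283, Sycp1 64.9 against 48.3 and Tdrkh 27.6 against 35.1.

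Set against WT IAA cells, a comparison added after the data were seen, each mutant had more germline genes higher than lower. The mutants differ from WT IAA cells by doxycycline, by the transgene's sequence and induction and by the line, which cannot be told apart. In K365T 27 were higher and 3 lower, where 22.1% of all genes were higher and 18.7% lower (40.8% called). In R377H 25 were higher and 2 lower, where 20.5% of all genes were higher and 16.5% lower (37.0% called). In R448Q 21 were higher and 4 lower, where 23.6% of all genes were higher and 23.2% lower (46.8% called). In R342C 20 were higher and 6 lower, where 20.5% of all genes were higher and 22.8% lower (43.3% called). In S354F 17 were higher and 4 lower, where 14.2% of all genes were higher and 13.3% lower (27.5% called). In R377C 17 were higher and 2 lower, where 13.0% of all genes were higher and 2249 of 18713 lower (25.0% called). In Q418R 13 were higher and 7 lower, where 15.0% of all genes were higher and 16.6% lower (31.7% called). In R339Q 11 were higher and 3 lower, where 9.12% of all genes were higher and 6.63% lower (15.7% called), and the total of 14 fell to 9 without R339Q replicate 1 and to 7 without WT IAA replicate 1. In H455R 10 were higher and 1 lower, where 13.8% of all genes were higher and 11.8% lower (25.6% called).

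Individual genes changed their standing with the choice of WT group. Stag3 and Tdrd1 were lower in WT IAA than in WT ID cells or nearly so (Tdrd1 -0.94 ± 0.33, adjusted p = 0.0502), and in all 9 mutants both were higher than in WT IAA cells, Stag3 by 0.44 to 1.53 and Tdrd1 by 1.20 to 2.96. Tdrkh was also higher than in WT IAA cells in all 9 mutants, by 0.82 to 2.31. For Stag3, the threshold was missed in Q418R on deposited TPM (adjusted p = 0.0894). For Tdrd1, the threshold was missed in R377H without R377H replicate 2 or WT IAA replicate 1 (adjusted p 0.0596 to 0.0794). For Tdrkh, the threshold was missed in R339Q without R339Q replicate 2 or WT IAA replicate 1 (adjusted p 0.0782 to 0.0895) and in Q418R without Q418R replicate 1 or WT IAA replicate 1 (adjusted p 0.0694 to 0.07796). Tex19.2 was lower than in WT IAA cells in R342C at -2.46 ± 0.29, S354F at -2.25 ± 0.29, Q418R at -2.19 ± 0.29, R377H at -1.56 ± 0.29, R377C at -1.51 ± 0.29 and K365T at -1.09 ± 0.29. For Tex19.2, the threshold was missed in K365T without WT IAA replicate 2 (adjusted p = 0.0525). Brdt was higher than in WT IAA cells in R339Q, R342C, S354F, K365T, R377C, R377H and Q418R by 0.83 to 1.63, and its differences in R448Q and H455R, 0.26 ± 0.14 and -0.26 ± 0.14, did not pass.

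Untreated cells keep the degron-tagged endogenous CTCF. Their libraries were normalised in a separate table, so the levels were compared in TPM with no test: a gene counts as apart where its mean TPM + 0.1 differed by at least 2-fold and the 2 libraries of each group did not overlap, among genes that averaged at least 0.5 TPM. Of 31 germline genes that passed this level filter, 13 were higher and 1 lower in WT IAA than in untreated cells, where 13.1% of all genes were higher and 4.0% lower (17.1% apart). In WT ID cells 6 were higher and 0 lower than in untreated cells, where 9.82% of all genes were higher and 2.82% lower (12.6% apart). The median log2 ratio of the 31 genes was 0.51 in WT IAA and 0.49 in WT ID cells, against 0.18 and 0.17 over all genes. Brdt had 2.67 and 2.62 TPM in WT IAA and 1.77 and 1.39 TPM in WT ID cells, against 0.158 and 0.255 TPM in untreated cells, a log2 ratio of 3.16 in WT IAA and 2.46 in WT ID cells. Tex19.2 had log2 ratios of 3.73 in WT IAA and 1.14 in WT ID cells, Tuba3b of 2.58 and 1.31, Tex101 of 2.22 and 1.25, Dazl of 2.14 and 1.53 and Ddx4 of 1.18 and 1.25. These 6 genes were apart in both groups. Among them Brdt, Tex19.2 and Tuba3b had means of 0.21, 0.28 and 0.43 TPM in untreated cells, under the level filter. That filter was a mean over the 4 libraries compared, so these genes passed it only through the group where they were higher. They could therefore count only as higher, which also holds for other such genes among all genes. In WT IAA cells alone, the genes apart were Tex19.1 (1.50), Syce1 (1.36), Mael (1.26), Rbm44 (1.17), Taf7l (1.13), Sycp1 (1.06) and Stk31 (1.03), all higher, and Tdrd12 (-1.06), lower. Whether the ratios of these genes differ between WT IAA and WT ID cells is given by the test of those groups above. The counts depend on the offset and the tool: with TPM + 1 they were 9 in WT IAA and 3 in WT ID cells, and edgeR on reads recovered from both tables called 19 in WT IAA cells, where it called 8545 of 18762 genes, and 16 in WT ID cells, where it called 7578. Of these, 4 were lower in WT IAA cells (Smc1b, Stag3, Tdrd12 and Tex14) and 2 in WT ID cells (Tdrd12 and Tex14).

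**Figure D4:**
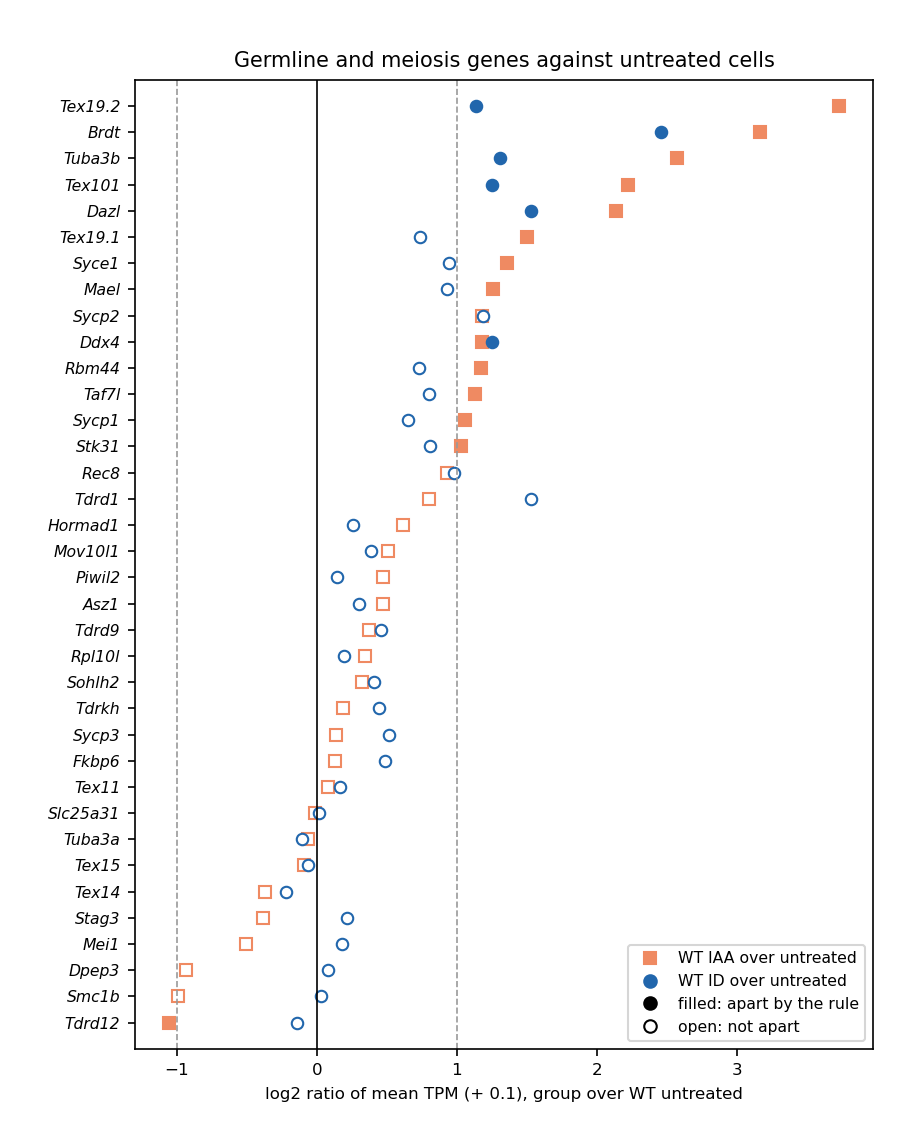
Log2 ratio of mean TPM + 0.1 over untreated cells in WT IAA and WT ID cells for 36 germline genes. Filled points were at least 2-fold apart with no overlap, among genes that averaged at least 0.5 TPM. Open points were not apart or lay under that level. Tdrd1 in WT ID (1.53) and Sycp2 in WT ID (1.19) and WT IAA (1.18) had no overlap but lay under it. Brdt, Tex19.2, Tuba3b, Tex101, Dazl and Ddx4 are filled in both groups.

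R377C and R377H replace the same arginine with cysteine or histidine. Between these lines 14 of the 36 germline genes differed, 1 higher and 13 lower in R377C, where 7.88% of all genes were higher and 11.1% lower (19.0% called), and the median log2 fold change was -0.22. The count was 8 without R377C replicate 1. The genes lower in R377C came from each of the larger role groups. Stk31 had 21.4 and 24.5 TPM in R377C against 61.8 and 58.6 TPM in R377H cells, a log2 fold change of -1.50 ± 0.15 (adjusted p = 9.44e-07). Smc1b had 10.3 and 13.00 TPM in R377C against 30.2 and 28.9 TPM in R377H cells (-1.45 ± 0.20, adjusted p = 3.78e-05). Fkbp6 differed by -1.37 ± 0.18, Rbm44 by -1.35 ± 0.17 and Tex14 by -1.31 ± 0.14 (adjusted p 1.42e-05, 1.47e-05 and 2.56e-06). In R377H cells these 5 genes were also above WT ID cells, by 0.87 to 3.01, and the difference passed in each. In R377C cells Rbm44 and Tex14 were above WT ID cells, by 1.67 and 0.67, while Stk31, Smc1b and Fkbp6 differed from WT ID cells by -0.40, -0.35 and -0.50 and did not pass. With DESeq2 the Fkbp6 difference passed (adjusted p = 0.0462). Smaller differences were called for Tuba3b (-1.19 ± 0.34), Hormad1 (-0.84 ± 0.27), Sycp1 (-0.78 ± 0.23), Tdrd12 (-0.68 ± 0.12), Rec8 (-0.68 ± 0.15), Tex11 (-0.51 ± 0.18), Tex19.1 (-0.51 ± 0.10) and Tuba3a (-0.51 ± 0.15), and Sycp2 was higher in R377C (1.29 ± 0.40). Of the 14 calls 7 held without each library in turn. Calls that did not hold were those of Tuba3b without R377C replicate 1 or R377H replicate 2 (adjusted p 0.148 to 0.158), Hormad1 without either R377C library or either R377H library, with no filter on low values, on deposited TPM or with DESeq2 on recovered reads (adjusted p 0.0517 to 0.246), Sycp1 without R377C replicate 1 or either R377H library or on deposited TPM (adjusted p 0.0512 to 0.267), Rec8 without R377C replicate 1 (adjusted p = 0.0993), Tex11 without R377C replicate 1 or either R377H library, with no filter on low values, on deposited TPM or after centring each chromosome (adjusted p 0.0672 to 0.349), Tuba3a without R377C replicate 1 or R377H replicate 2, with no filter on low values or on deposited TPM (adjusted p 0.0609 to 0.242) and Sycp2 without either R377C library or R377H replicate 1, with no filter on low values or with DESeq2 on recovered reads (adjusted p 0.0774 to 0.333). The Tex19.1 difference held without each library but was -0.02 after centring each chromosome (adjusted p = 0.914). Sohlh2 was not called, at 0.55 ± 0.19 (adjusted p = 0.0533), and passed on deposited TPM, with edgeR, with DESeq2 and without R377C replicate 1 (adjusted p 0.00275 to 0.0467). Brdt, Ddx4 and Piwil2, which were higher than in WT ID cells in both lines, differed between them by 0.27 ± 0.14, -0.14 ± 0.16 and 0.07 ± 0.19 (adjusted p 0.212, 0.597 and 0.835). These differences with their SE do not show that the lines act alike.

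**Figure D5:**
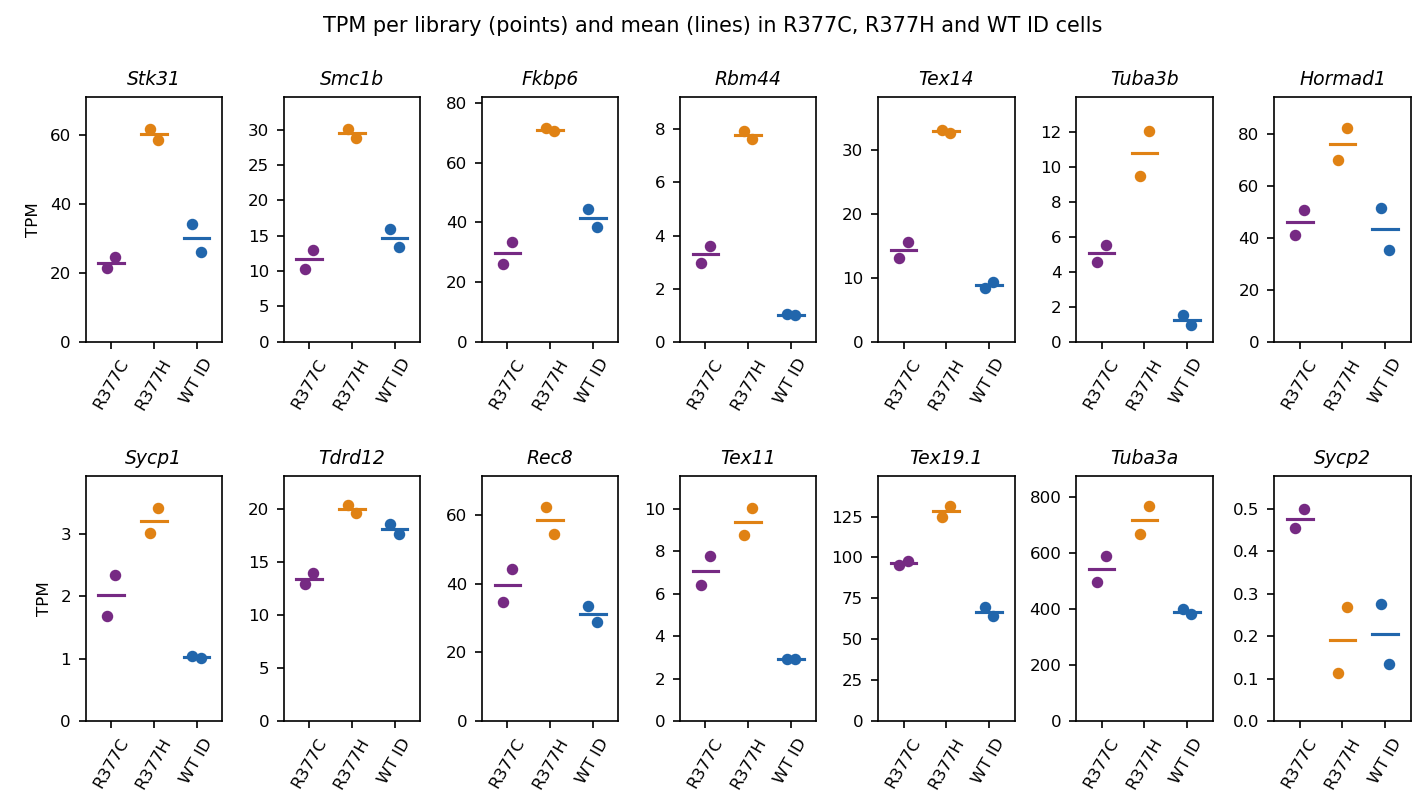
TPM in each library (points, linear axis) of the 14 germline genes that differed between R377C and R377H, with WT ID for reference. Of the 14, 13 lie lower in R377C than in R377H cells, among them Stk31 and Smc1b, and Sycp2 lies higher.

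Whole chromosomes were shifted in some lines, and some of the genes described here lie on them. Against WT ID cells the median log2 fold change of all genes on chromosome 11, which holds Tex14, Tex19.1 and Tex19.2, lay 0.54 above that of all chromosomes in R377H and 0.38 above it in K365T. Chromosome 1, with Mael and Rbm44, was shifted by 0.47 in R448Q, 0.27 in K365T and 0.24 in Q418R. Chromosome 3, with Hormad1, Slc25a31, Sohlh2, Sycp1 and Tdrkh, was shifted by 0.45 in R448Q. Chromosome 8, with Dpep3 and Tex15, was shifted by 0.47 in H455R, 0.45 in R448Q and 0.20 in K365T, and chromosome 6, with Asz1, Stk31, Tuba3a and Tuba3b, by -0.46 in Q418R. After each chromosome was centred on its own median, the calls against WT ID that were lost were those of Mael in Q418R and R448Q (adjusted p 0.145 and 0.0512), Rbm44 in R448Q (0.0688), Tex15 in K365T (0.177), Tex19.2 in R377H (0.158) and Rpl10l in R448Q (0.234). Calls against WT ID gained by the same centring were those of Tex15, lower in H455R (-0.73, adjusted p = 0.000198), Hormad1, lower in Q418R (-0.78, 0.0436) and R448Q (-0.75, 0.0310), Stk31, higher in K365T (0.43, 0.0427) and Q418R (0.49, 0.0271), Rec8, higher in R448Q (0.41, 0.0434), and Dazl, higher in WT IAA (0.68, 0.0496). Between R377C and R377H, chromosome 11 was shifted by -0.50, and after centring Tex19.1 (0.914) and Tex11 (0.0672) no longer passed.

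Other genes of the germline programme, from lists drawn up for these cells, were tested in the same comparisons with WT ID; as given above, the share of all genes higher was 17.7% in K365T, 14.4% in R377H and 22.8% in R448Q, and the share lower was 14.2%, 10.7% and 23.1%. Of 28 other meiosis genes, 10 (35.7%) were higher in K365T, 9 (32.1%) were higher and 1 lower in R377H and 9 (32.1%) and 3 in R448Q. In R339Q 2 were higher and 7 (25%) lower, where 11.8% of all genes were higher and 9.7% lower. In WT IAA cells 1 was higher and 6 (21.4%) lower, where 9.96% of all genes were higher and 10.7% lower. In the other 5 mutants 2 to 5 were higher and up to 4 lower. The share higher was 10.7% in H455R, against 12.6% of all genes. It was 14.3% in R342C, 10.7% in S354F, 7.14% in R377C and 17.9% in Q418R. The shares of all genes higher there were 10.0%, 5.49%, 4.67% and 11.2%. Meioc, which keeps germ cells in meiotic prophase, was higher than in WT ID cells in all 9 mutants, by 0.53 in R448Q to 2.53 in R377H, and in WT IAA cells by 0.62. Of 17 genes listed as other piRNA and germ granule genes, 10 (58.8%) were higher and 2 lower in K365T, 9 (52.9%) and 2 in R377H and 8 (47.1%) and 2 in R448Q. The 17 include Zfp42, which is a naive ES cell marker and not a gene of that pathway. Zfp42 was higher in 6 of the 10 comparisons with WT ID and is counted in these shares. In the other 6 mutants 3 to 6 were higher and 1 to 4 lower. The share higher was 17.6% to 35.3%, against 4.67% to 12.6% of all genes. Piwil4 (MIWI2), Tdrd5 and Gtsf1 stood at opposite ends: Piwil4 was called higher in 9 of the 10 comparisons with WT ID, with 1.71 in WT IAA cells, Tdrd5 in 8, with 2.27 in R448Q, and Gtsf1 was called lower in 8, with -2.18 in R448Q. Of 20 germ cell regulators, 12 (60%) were higher and 1 lower in R377H and 8 (40%) and 1 in K365T. In the other 7 mutants up to 7 were higher and up to 3 lower. The share higher was 0% in R377C and 5% in S354F, against 4.67% and 5.49% of all genes. It was 15% in R339Q, 20% in H455R, 25% in R342C, 25% in Q418R and 35% in R448Q. The shares of all genes higher there were 11.8%, 12.6%, 10.0%, 11.2% and 22.8%. Dmrtb1, a transcription factor of mouse spermatogonia, was higher in 8 comparisons, with 1.54 in R339Q and 1.10 in WT IAA cells. Dppa3 (Stella), an early germ cell and naive ES cell gene, was higher in 6 comparisons, with 2.67 in R377H and 1.45 in WT IAA cells.

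A list of 25 genes held mostly repressors of germline genes, among them subunits of the MGA and E2F6 complex and DNA methyltransferases. It also held Tet1 and Tet2, which act in DNA demethylation, so its counts are not those of repressors alone. Of the 25 genes, 8 (32%) were higher and 3 lower in R448Q, 4 (16%) and 3 in R377H, 4 (16%) and 1 in K365T and 4 (16%) and 4 in Q418R, where 11.2% of all genes were higher. In R342C 8 (32%) were lower, where 13.3% of all genes were lower. The 16% in R377H and K365T lay near the share of all genes. In the other 4 mutants up to 2 (8%) were called in each direction. There 4.67% to 12.6% of all genes were higher and 3.43% to 10.5% lower. Dnmt3b, a de novo DNA methyltransferase, was lower in 4 and higher in 1 of the 10 comparisons with WT ID, with log2 fold changes of at most 0.69 in size, and Tfdp1, a partner of E2F proteins, was higher in 4, with 1.34 in R448Q. Markers of the 2-cell-like state, a rare state of ES cell cultures, were called in part of the lines: of 12 tested, 9 were higher in WT IAA and in H455R, 6 in Q418R, 4 in R377C and 4 in R448Q, where 9.96%, 12.6%, 11.2%, 4.67% and 22.8% of all genes were higher, and at most 2 in the other 5 mutants. Their summed level over 16 genes was 147 to 198 TPM in the mutant libraries, 222 and 214 TPM in WT IAA, 204 and 194 TPM in WT ID and 217 and 209 TPM in untreated cells. Eif1a, at a mean of 178 TPM, carries that sum, and the other 15 genes averaged at most 1.29 TPM. Their part in the germline results was not tested.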

How the data were processed

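RNA was sequenced from total RNA libraries (ribosomal RNA depleted, stranded kit, per the labels' protocols). Reads were processed with Trim Galore, STAR and DESeq2 on build mm10, per the submitters' processing notes; the sources used here do not name their versions, the annotation, the counting tool or its strand setting. The deposited signal values are gene counts divided by a size factor per library (normalised counts, per the file headers), in 1 table for 22 libraries and another for the untreated cells, and the authors also deposited TPM for each gene. All normalised counts came out as whole reads within 0.001 of a read after division by the value of 1 read, so reads were recovered for the count tests.

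The 37 genes, the other gene lists and the comparisons were chosen with earlier results of these data known, and the comparisons with WT IAA were added after seeing the data. Groups follow the titles in the labels. limma 3.58.1 (R 4.3.3) was fitted with a trend to log2(normalised count + 1) of the 18713 genes averaging at least 10 over 22 libraries, 11 groups sharing 1 spread, with two-sided p-values adjusted by Benjamini-Hochberg within each comparison. An F test across the 11 groups passed for all 36 tested germline genes, where 78.1% of all genes passed. Untreated cells were compared by TPM only. Values in every library are given for the 12 germline genes called in the most of the 10 comparisons with WT ID, ties broken by the largest log2 fold change; at most 4 genes of each other list are named by the same order. Alternatives were a pseudocount of 4, no filter, the deposited TPM, edgeR 4.0.16 and DESeq2 1.42.0 on the recovered reads, centring each chromosome, a replicate block, each library left out and, against untreated cells, TPM + 1. Gene positions are from GENCODE M21 on mm10. Counts were also simulated with a preset spread, not one estimated from these libraries, and with 50 of 18713 genes changed at each size. There the R339Q comparison recovered 28% of 1.5-fold, 68% of 2-fold, 84% of 3-fold and 92% of 4-fold changes. In the data 21.5% of genes were called in R339Q, so these rates need not hold for the data. No 2 replicate libraries agreed within the noise of counting. The same replicate number did not pair libraries across groups. Depth sets the precision of the low genes, and intervals here cover the spread between libraries only.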

Additional observations from a re-analysis of the deposited data

Results flagged for a closer look

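The same contrast of R377C with R377H, lines in which one arginine is replaced by different residues, differed for 14 of the 36 germline genes by limma's test of the difference itself (adjusted p under 0.05). On the log2 scale, R377C minus R377H, the genes of the piRNA pathway and germ cell RNA binding were Stk31 (-1.50), Fkbp6 (-1.37), Rbm44 (-1.35), Tdrd12 (-0.68) and Tex19.1 (-0.51). Those of meiotic chromosome structure were Smc1b (-1.45), Hormad1 (-0.84), Sycp1 (-0.78), Rec8 (-0.68), Tex11 (-0.51) and Sycp2 (1.29), and the others were Tex14 (-1.31), Tuba3b (-1.19) and Tuba3a (-0.51). Sycp2 was the 1 gene higher in R377C. The median of all genes on chromosome 11, which holds Tex14 and Tex19.1, was shifted by -0.50 in the same contrast. The values given here for Tex14 and Tex19.1 include that shift. With each chromosome centred the Tex19.1 difference was -0.02 (limma, adjusted p = 0.914). Ctcf RNA had 11703 and 11280 normalised counts in R377C and 10468 and 10645 in R377H cells; its part in these differences was not tested.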

How the results depend on the processing

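The counts of germline genes called were recomputed in 23 comparisons: the 21 tested ones under each alternative but TPM + 1, and the 2 with untreated cells under TPM + 1, edgeR, no filter on low values and with 1 library left out. Counts of the tested comparisons stayed within 1.5 times under a pseudocount of 4, no filter on low values, deposited TPM, edgeR, DESeq2 and centring of each chromosome. Against untreated cells, TPM + 1 gave 9 in WT IAA and 3 in WT ID cells, and edgeR gave 16 in WT ID cells, against 14 and 6; the cause was not tested. With 1 library left out, the counts ranged between 7 and 13 for R339Q against WT IAA and 8 and 12 for R377C against R377H. With 1 library left out, they ranged between 10 and 18 for R377C, 8 and 12 for S354F and 11 and 14 for H455R, each against WT ID. Over all comparisons and left-out libraries, 309 losses and 28 gains of single-gene calls were counted. The same call can be counted up to 4 times there, once for each library left out. Distinct calls lost without at least 1 library were fewer, such as 4 of 28 in R448Q against WT ID and 9 of 14 in R339Q against WT IAA. Calls of single genes gained and lost were 2 and 2 with a pseudocount of 4, 9 and 43 on deposited TPM, 13 and 16 with centring, 16 and 3 with edgeR and 11 and 18 with DESeq2, and 46 were lost with no filter. Centring each chromosome reversed Tex19.1 against WT IAA in K365T (-0.10) and R377H (-0.26) and Rbm44 against WT IAA in R448Q (-0.0029). The replicate numbers did not pair the libraries: over 55 pairs of groups the correlation of same-numbered deviations had a median of 0.0230 (-0.248 to 0.382), and 10 exceeded 0.1. With a replicate block, each count stayed within 1.5 times, 21 calls of single genes were gained and 1 was lost; among the gained were Fkbp6 in R377C (adjusted p = 0.0461), Sycp3 in Q418R (0.0442) and H455R (0.0388) and Tex101 in H455R (0.0174), against WT ID. Genes under 1 TPM have few reads, and differences in them were detectable only when large.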

Other observations

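Markers of other cell types were tested against WT ID cells with the same limma model (adjusted p under 0.05), in the 9 mutants and in WT IAA cells. Of all genes, the share higher was 11.8% in R339Q, 10.0% in R342C, 5.49% in S354F, 17.7% in K365T, 4.67% in R377C, 14.4% in R377H, 11.2% in Q418R, 22.8% in R448Q, 12.6% in H455R and 9.96% in WT IAA. Of all genes, the share lower was 9.7% in R339Q, 13.3% in R342C, 4.31% in S354F, 14.2% in K365T, 3.43% in R377C, 10.7% in R377H, 13.8% in Q418R, 23.1% in R448Q, 10.5% in H455R and 10.7% in WT IAA. Counts of 1 or 2 genes in these short lists are to be read against those shares. Of 9 primitive endoderm markers tested, the number higher was 5 in R342C, 3 each in R339Q, K365T, H455R and WT IAA, 2 each in S354F, Q418R and R448Q, and 1 in R377C. The number of primitive endoderm markers lower was 3 in R448Q, and 1 each in R339Q, K365T, R377H, Q418R, H455R and WT IAA. Summed over 12 genes, their level was 229.5 to 429.7 TPM in the mutant libraries, 397 and 397 TPM in WT IAA, 357 and 324 TPM in WT ID and 272 and 241 TPM in untreated cells. The sum rests mostly on Sparc and Lama1, at means of 227 and 87.0 TPM. Of 12 Sertoli and granulosa cell markers tested, the number higher was 4 in R342C, 3 each in S354F and K365T, 2 in R339Q, and 1 each in R377C, R377H, Q418R, R448Q, H455R and WT IAA. The number of Sertoli and granulosa cell markers lower was 6 in R448Q, 4 in Q418R, 2 in R377H, and 1 each in K365T and H455R. Summed over 14 genes, their level was 59.0 to 111 TPM in the mutant libraries, 122 and 101 TPM in WT IAA, 110.2 and 77.5 TPM in WT ID and 86.0 and 51.4 TPM in untreated cells. The sum rests mostly on Aard and Rhox5, at means of 52.2 and 20.2 TPM. Of 9 oocyte markers tested, the number higher was 3 each in K365T and R377H, 2 each in Q418R, R448Q, H455R and WT IAA, and 1 each in R339Q and S354F. The number of oocyte markers lower was 4 in R448Q, 2 each in R339Q, R342C, K365T and R377H, and 1 each in R377C, Q418R, H455R and WT IAA. Summed over 15 genes, their level was 84.9 to 165 TPM in the mutant libraries, 151 and 151 TPM in WT IAA, 173 and 162 TPM in WT ID and 197 and 196 TPM in untreated cells. The sum rests mostly on Ooep and Zp3, at means of 76.3 and 25.0 TPM. Of 5 fibroblast markers tested, the number higher was 2 each in R339Q, R342C, S354F, K365T, R377C, R377H, H455R and WT IAA. The number of fibroblast markers lower was 3 in R448Q, and 1 each in K365T and WT IAA. Summed over 12 genes, their level was 61.0 to 168 TPM in the mutant libraries, 109 and 119 TPM in WT IAA, 127 and 129.8 TPM in WT ID and 92.7 and 91.0 TPM in untreated cells. The sum rests mostly on Fbln1 and Pdgfrb, at means of 89.9 and 19.7 TPM. Col1a2, Col3a1, Dcn and Postn averaged at most 0.0198 TPM, and S100a4 was at 0 in every library. Of 3 post-meiotic spermatid markers tested, the number higher was 1 each in R342C, K365T and R448Q. The number of post-meiotic spermatid markers lower was 1 in R448Q. The part of these cell types in the germline results was not tested.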
